A study of Homo sapiens with 22 samples.

Results

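A set of 39 DNA replication and cell cycle genes was followed through the endoplasmic reticulum (ER) stress response of LN308 cells. The genes were listed by name from their known roles in origin licensing, replication, the cyclins and mitosis. No measured value entered the rule, but the list was made with earlier results of these data known. Each of the 39 was matched to a single entry among the 58278 gene entries of the count files. LN308 is an established human line of p53-deficient glial cells derived from an astrocytoma, so every group shares the p53 deficiency and comes from a single line. Total RNA was sequenced as RNA-Seq and ribosome-protected fragments as Ribo-Seq, and the question set was how the genes at 6 h compared with those at 2 h, and CDC6 with the rest.

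In each assay there were 3 untreated libraries (0 h), 3 libraries after 2 h and 3 after 6 h of tunicamycin at 2.5 µg/ml, and 1 library each after 2 h and 6 h of thapsigargin at 200 nM. Tunicamycin blocks N-linked glycosylation and thapsigargin blocks the calcium pump of the ER. The treatment protocol names the solvent DMSO as the control, while the 0 h libraries are labelled untreated, and the protocol for ribosome footprints adds cycloheximide at 0.1 mg/ml for 5 min. Nothing in the labels says that the replicates came from separate cultures, so the p-values measure the spread between these libraries, which may be technical. RNA-Seq libraries held 101 to 167 M counts (M, counts in units of 1e6) and Ribo-Seq libraries 4.39 to 29.2 M. The 39 genes together took 0.413% to 0.928% of the counts in RNA-Seq and 0.305% to 0.702% in Ribo-Seq. Their lowest count was 367 in RNA-Seq (CCNE1) and 30 in Ribo-Seq (CDC25C), and all 39 passed the filter on low counts in both assays.

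DNA replication is licensed in G1, when the origin recognition complex (ORC), CDC6 and CDT1 load the MCM helicase onto origins. E2F transcription factors, released as cyclin D and cyclin E kinases act on the retinoblastoma protein, drive the genes of S phase, and E2F7 and E2F8 form a repressing branch that shuts the same genes down. The mitotic genes peak later, under factors that bind CHR and CCAAT elements, and in proliferating glioma lines all of these classes are normally expressed.

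The labelled cell type was only partly matched by its markers. VIM, NES, S100B and OLIG2 were present, with VIM at 451 to 1664 CPM in the untreated RNA-Seq libraries. GFAP, the classical astrocyte filament, was only at 1.16 to 1.59 CPM there and AQP4, the astrocyte water channel, at or below 0.397 CPM. Levels of the other listed glial markers (SOX2, SOX9, SLC1A3 and ALDH1L1) are not given here, so the match was read from part of the list. GFAP rose to 2.82 to 3.38 CPM at 6 h of tunicamycin in RNA-Seq (log2 fold change 1.15 ± 0.246 against untreated, edgeR adjusted p = 0.0493), the single gene of the 3 cell type marker lists called in any tunicamycin comparison over all libraries. The median of the 10 glial markers in this comparison was -1.11 against -0.27 over all genes, with 7 of 10 negative. The 8 blood cell markers summed to 1.07 to 3.46 CPM in RNA-Seq over all libraries. All 8 ER stress sentinel genes, the chaperone gene HSPA5 among them, rose in RNA-Seq after 6 h of tunicamycin.

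The RNA-Seq library of untreated replicate 1 stood apart from all others. The leading component of a principal component analysis (47.7% of the variance) placed it at -330 and the other 10 RNA-Seq libraries at 16.3 to 47.7. It had 53489 genes with a count, against 38264 to 40331 in the others. Its TMM scaling factor was 1.457, against 0.904 to 1.06 in the others. Of the 39 genes, 38 had their lowest untreated level in this library, with a median of -0.98 (log2) against the mean of replicates 2 and 3. In Ribo-Seq, 33 of 39 were lowest in untreated replicate 1, with a median difference of -0.56. After tunicamycin the order was the opposite: replicate 1 was the highest of 3 for 35 of 39 genes at 2 h and 35 at 6 h in RNA-Seq, and for 33 and 32 in Ribo-Seq. The part of this replicate in the results was not tested, and main results against untreated cells are also given without it.

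CDC6 encodes the ATPase that, bound to ORC, helps to load the MCM helicase (chr17:40287879-40304657 in GRCh38.p14). Its RNA level in untreated cells was 31.8, 82.4 and 68.0 TMM-scaled CPM (counts per 1e6) in replicates 1 to 3. After 2 h of tunicamycin it was 174, 96.2 and 94.8 CPM, and after 6 h it was 595, 277 and 274 CPM. All 3 libraries at 6 h lay above every library at 2 h and every untreated library, and replicate 1 was the highest at both times. The 6 h level averaged 382 ± 184 CPM (SD, n = 3) against 60.7 ± 26.1 CPM (SD, n = 3) in untreated cells. In edgeR's quasi-likelihood test the difference was 2.65 ± 0.454 (log2 fold change ± SE, adjusted p = 0.0192), so CDC6 rose between 0 h and 6 h. Without untreated replicate 3 the adjusted p was 0.0505. CDC6 also rose with replicates 2 and 3 alone, by a smaller 1.90 (edgeR adjusted p = 5.68e-06).

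Footprints on CDC6 followed the RNA. Ribo-Seq levels were 33.7, 52.8 and 47.1 CPM in untreated cells, 114, 47.8 and 57.3 CPM at 2 h and 317, 204 and 182 CPM at 6 h. The 2 h libraries overlapped the untreated ones, and the 6 h libraries lay above both groups. CDC6 rose by 2.40 ± 0.371 (log2) from untreated to 6 h in edgeR (adjusted p = 0.0106), a call that was lost without untreated replicate 2 (adjusted p = 0.0541) or untreated replicate 3 (adjusted p = 0.0643). Replicates 2 and 3 alone gave 2.00 (edgeR adjusted p = 0.00248).

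Between 2 h and 6 h, CDC6 differed by 1.65 ± 0.438 (log2) in RNA-Seq (edgeR adjusted p = 0.148) and by 1.68 ± 0.362 in Ribo-Seq (adjusted p = 0.0552), and it was higher at 6 h in 3 of 3 replicates of each assay. Neither passed the threshold of 0.05. With the replicate number as a block, CDC6 rose in Ribo-Seq (1.71, edgeR adjusted p = 0.0359) and not in RNA-Seq (1.63, adjusted p = 0.117). With replicates 2 and 3 only, it rose in both (RNA-Seq 1.54, edgeR adjusted p = 3.155e-05; Ribo-Seq 1.90, adjusted p = 0.00346). From untreated to 2 h the values were 1.00 ± 0.431 (edgeR adjusted p = 0.548) in RNA-Seq and 0.72 ± 0.355 (adjusted p = 1) in Ribo-Seq. With replicates 2 and 3 only, the values were 0.36 and 0.10, so replicate 1 carried most of the 2 h difference.

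**Figure D1:**
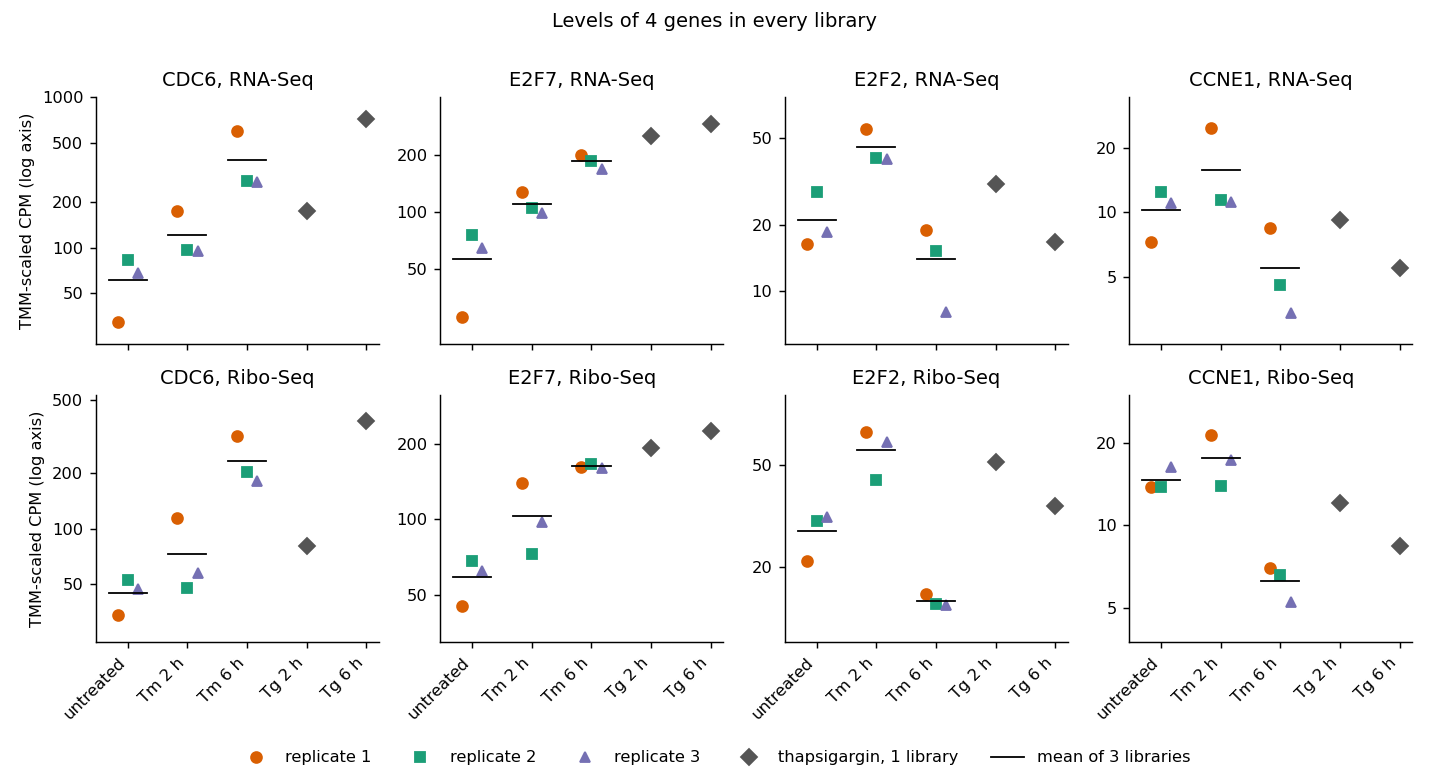
TMM-scaled CPM (log axis) of CDC6, E2F7, E2F2 and CCNE1 in every RNA-Seq (top) and Ribo-Seq (bottom) library; points are libraries, colours and shapes mark the replicate number, black lines are means of 3 libraries, Tm is tunicamycin and Tg thapsigargin (1 library each, grey diamonds). CDC6 and E2F7 are highest at 6 h, while E2F2 and CCNE1 at 6 h of tunicamycin lie below all libraries at 2 h in both assays.

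E2F7, a repressor of E2F target genes, was the other member that rose. Its RNA level was 28.1, 75.9 and 65.1 CPM in untreated cells, 128, 105 and 98.8 CPM at 2 h and 199.8, 186 and 169.9 CPM at 6 h of tunicamycin. Footprints were at 45.4, 68.5 and 62.2 CPM, then 139.5, 72.4 and 97.8 CPM, then 161, 166 and 161 CPM. The 3 groups did not overlap in either assay, and the 6 h libraries lay close together. E2F7 rose from untreated to 6 h by 1.72 ± 0.334 (log2) in RNA-Seq (edgeR adjusted p = 0.0337) and by 1.47 ± 0.285 in Ribo-Seq (adjusted p = 0.0328). These calls sit near the threshold: leaving out single libraries ended the call in 5 of 6 RNA-Seq fits (all but untreated replicate 1), with adjusted p up to 0.1015, and in 6 of 6 Ribo-Seq fits, with adjusted p of 0.0623 to 0.144. E2F7 rose with replicates 2 and 3 alone, by 1.36 in RNA-Seq (edgeR adjusted p = 3.72e-05) and 1.37 in Ribo-Seq (adjusted p = 0.015).

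From untreated to 2 h, E2F7 stood at 0.97 ± 0.328 in RNA-Seq (edgeR adjusted p = 0.548) and at 0.82 ± 0.281 in Ribo-Seq (adjusted p = 1). In the fit of replicates 2 and 3 alone, E2F7 rose at 2 h in RNA-Seq (0.55, edgeR adjusted p = 0.0221). From 2 h to 6 h the difference was 0.74 ± 0.327 in RNA-Seq (edgeR adjusted p = 0.489) and 0.65 ± 0.280 in Ribo-Seq (adjusted p = 0.455). Replicates 2 and 3 alone gave 0.81 (edgeR adjusted p = 0.000739) and 0.96 (adjusted p = 0.0409).

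E2F2, an activator of S phase genes, moved the opposite way late in the course. In RNA-Seq it was at 16.3, 28.5 and 18.6 CPM in untreated cells, at 55.4, 40.4 and 40.3 CPM at 2 h and at 19.0, 15.1 and 7.95 CPM at 6 h of tunicamycin. In Ribo-Seq it was at 21.2, 30.2 and 31.2 CPM, then 66.8, 43.4 and 61.2 CPM, then 15.8, 14.4 and 14.3 CPM. Every 2 h library lay above every untreated library and every 6 h library in both assays, so the level went up and then down in each replicate.

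Footprints on E2F2 fell from 2 h to 6 h by 1.95 on the log2 scale (SE 0.279, edgeR adjusted p = 0.00724), the single member called in this comparison. The call was lost without tunicamycin 6 h replicate 2 (adjusted p = 0.0653) or replicate 3 (edgeR adjusted p = 0.0803). In RNA-Seq the difference was -1.69 ± 0.344 (edgeR adjusted p = 0.0588), and with the replicate block it passed (-1.75, adjusted p = 0.0274). From untreated to 2 h E2F2 had the largest log2 difference of the 39 genes in both assays, 1.10 ± 0.338 in RNA-Seq and 1.06 ± 0.270 in Ribo-Seq, neither called (edgeR adjusted p = 0.548 and 1). Within replicate numbers this difference was 1.76, 0.50 and 1.11 in RNA-Seq and 1.65, 0.52 and 0.97 in Ribo-Seq.

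E2F8, which pairs with E2F7 as a repressor, differed from it. Its RNA was at 14.9, 31.9 and 23.5 CPM in untreated cells, at 54.4, 34.8 and 34.9 CPM at 2 h and at 21.5, 15.1 and 10.4 CPM at 6 h. The 2 h libraries lay above all untreated and 6 h libraries, and the difference from 2 h to 6 h was -1.40 ± 0.352 (log2) in RNA-Seq (edgeR adjusted p = 0.125) and -1.12 ± 0.395 in Ribo-Seq (adjusted p = 0.324). E2F8 fell in RNA-Seq when replicates 2 and 3 alone were fitted (-1.44, edgeR adjusted p = 0.00134). E2F1, another activator, differed by -0.37 in RNA-Seq and -0.49 in Ribo-Seq from 2 h to 6 h.

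CCNE1 encodes cyclin E1, which activates CDK2 at the start of S phase. Its RNA level was 7.30, 12.4 and 11.1 CPM in untreated cells, 24.8, 11.4 and 11.2 CPM at 2 h and 8.47, 4.59 and 3.39 CPM at 6 h of tunicamycin. Footprints were at 13.8, 13.9 and 16.3 CPM, then 21.5, 14.0 and 17.3 CPM, then 6.97, 6.58 and 5.25 CPM. The 6 h footprint levels lay below every untreated and every 2 h library. From 2 h to 6 h CCNE1 differed by -1.53 ± 0.424 (log2) in RNA-Seq (edgeR adjusted p = 0.17) and by -1.49 ± 0.341 in Ribo-Seq (adjusted p = 0.0755), and with the replicate block it fell in Ribo-Seq (-1.48, adjusted p = 0.0394). Against untreated cells the 6 h difference was -0.90 ± 0.418 in RNA-Seq (edgeR adjusted p = 0.296) and -1.23 ± 0.338 in Ribo-Seq (adjusted p = 0.143). Without untreated replicate 1, CCNE1 fell in RNA-Seq, by 1.55 with the block (edgeR adjusted p = 6.74e-06) and by 1.53 with replicates 2 and 3 alone (adjusted p = 0.000225). In Ribo-Seq the block without Ribo-Seq untreated replicate 1 gave -1.33 (edgeR adjusted p = 0.0403) and replicates 2 and 3 alone -1.30 (adjusted p = 0.085).

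CCNE2, the second cyclin E, was at -1.24 ± 0.485 in RNA-Seq and -0.99 ± 0.506 in Ribo-Seq from 2 h to 6 h (edgeR adjusted p = 0.395 and 0.54). CCND1, cyclin D1 of early G1, showed the widest gap between untreated replicates of the 39 genes in RNA-Seq. Its RNA was at 226 CPM in untreated replicate 1 and at 1769 and 1698 CPM in replicates 2 and 3, against 1036, 1132 and 1151 CPM at 2 h and 744.5, 1209 and 1177 CPM at 6 h. Replicate 1 thus had less CCND1 untreated than treated, and replicates 2 and 3 had more. Among replicates 2 and 3, CCND1 fell by 0.58 (log2) from untreated to 2 h in RNA-Seq (edgeR adjusted p = 0.0106) and by 0.51 to 6 h (adjusted p = 0.00455).

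Most of the genes other than CDC6 and E2F7 had modestly lower values at 6 h than at 2 h of tunicamycin. In RNA-Seq 36 of 39 had a negative log2 difference, with a median of -0.47 against 0 over the 41130 genes tested. In Ribo-Seq 31 of 39 were negative, with a median of -0.39 against -0.04 over 19411 genes. Both assays were negative for 31 genes and both positive for 3, CDC6, E2F7 and AURKB, the last at 0.001 in RNA-Seq and 0.07 in Ribo-Seq. In bulk libraries a lower level per cell and fewer cells in a given cycle phase cannot be told apart.

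Few of these differences passed the test singly. By edgeR 0 of 39 members were called in RNA-Seq, where 0.742% of all genes were called, and 1 of 39 (E2F2) in Ribo-Seq, where 0.752% were. Of all genes, 0.588% were called higher and 0.153% lower in RNA-Seq. At an unadjusted p under 0.05 there were 2 higher and 6 lower members in RNA-Seq (9.75% of all genes) and 2 higher and 7 lower in Ribo-Seq (10% of all genes). DESeq2 called 4 members in RNA-Seq, where it called 3.85% of all genes, and 3 in Ribo-Seq, where it called 2.71%. Groups did not overlap for 2 higher members (CDC6 and E2F7) in each assay, against 10.3% of all genes in RNA-Seq and 9.1% in Ribo-Seq, and for 4 lower members in RNA-Seq and 10 in Ribo-Seq, against 9.21% and 8.53% of all genes.

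The count of calls depended strongly on the replicates in the fit. With the replicate number as a block and the RNA-Seq library of untreated replicate 1 left out, 2 members rose and 33 fell between 2 h and 6 h in RNA-Seq, where 33.1% of all genes were called and 17.1% were called lower. With replicates 2 and 3 only, 2 rose and 24 fell, against 25.1% called and 12.5% called lower over all genes. The members that rose in both of these fits were CDC6 and E2F7. In Ribo-Seq the same fits, the first without Ribo-Seq untreated replicate 1, called 2 higher and 10 lower members (10.1% of all genes called, 4.41% lower) and 2 higher and 3 lower (4.18% called, 1.6% lower).

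The origin licensing group, ORC1, ORC6, CDC6, CDT1, the CDT1 inhibitor GMNN and MCM2 to MCM7, had 10 of 11 genes negative in RNA-Seq (median -0.57) and 9 of 11 in Ribo-Seq (median -0.47). CDC6 was the highest in both and ORC1, the ATPase subunit that marks origins in G1, the lowest at -0.94 and -0.81. CDT1, the partner of CDC6 in helicase loading, stood at -0.92 ± 0.371 in RNA-Seq (edgeR adjusted p = 0.415) and -0.68 ± 0.348 in Ribo-Seq (adjusted p = 0.545). Its RNA was at 63.4, 67.5 and 66.1 CPM at 2 h and 28.3, 44.4 and 31.5 CPM at 6 h, so its 2 h and 6 h libraries did not overlap. In the fit of replicates 2 and 3, 8 licensing genes fell in RNA-Seq and CDC6 alone rose. In that fit 12.5% of all genes were called lower and 12.6% higher.

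The 6 helicase subunits were all negative from 2 h to 6 h. They spanned -0.78 (MCM2) to -0.19 (MCM7) in RNA-Seq and -0.78 to -0.05, with the same genes at the ends, in Ribo-Seq. MCM5, among the members with the smallest p in Ribo-Seq at 2 h, had footprints at 91.3, 184 and 190.3 CPM in untreated cells, 267, 205 and 263 CPM at 2 h and 223, 161 and 146 CPM at 6 h of tunicamycin. Untreated replicate 1 was the lowest of these 9 libraries, and all 3 untreated libraries lay below all 3 at 2 h. The edgeR difference at 2 h was 0.66 ± 0.314 (adjusted p = 1).

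The replisome group (MCM10, GINS1, GINS2, POLA1, PRIM1, PCNA, RFC3, RFC4 and TOP2A) was negative for 9 of 9 genes in RNA-Seq, median -0.62, and for 8 of 9 in Ribo-Seq, median -0.43. PCNA, the sliding clamp of the polymerases, was the lowest in RNA-Seq at -1.08 ± 0.422 (edgeR adjusted p = 0.393), and GINS2, a subunit of the active helicase, the lowest in Ribo-Seq at -1.04 ± 0.379 (adjusted p = 0.346). POLA1, the catalytic subunit of the primase-bound polymerase, was the highest in both, at -0.20 and 0.43. The ribonucleotide reductase genes RRM1 and RRM2, which supply deoxynucleotides, were near 0: -0.28 and -0.19 in RNA-Seq, 0.08 and -0.20 in Ribo-Seq. PCNA and RRM2 have processed copies elsewhere in the genome, and how shared reads were counted is not given in the sources used here, so their values are uncertain.

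**Figure D2:**
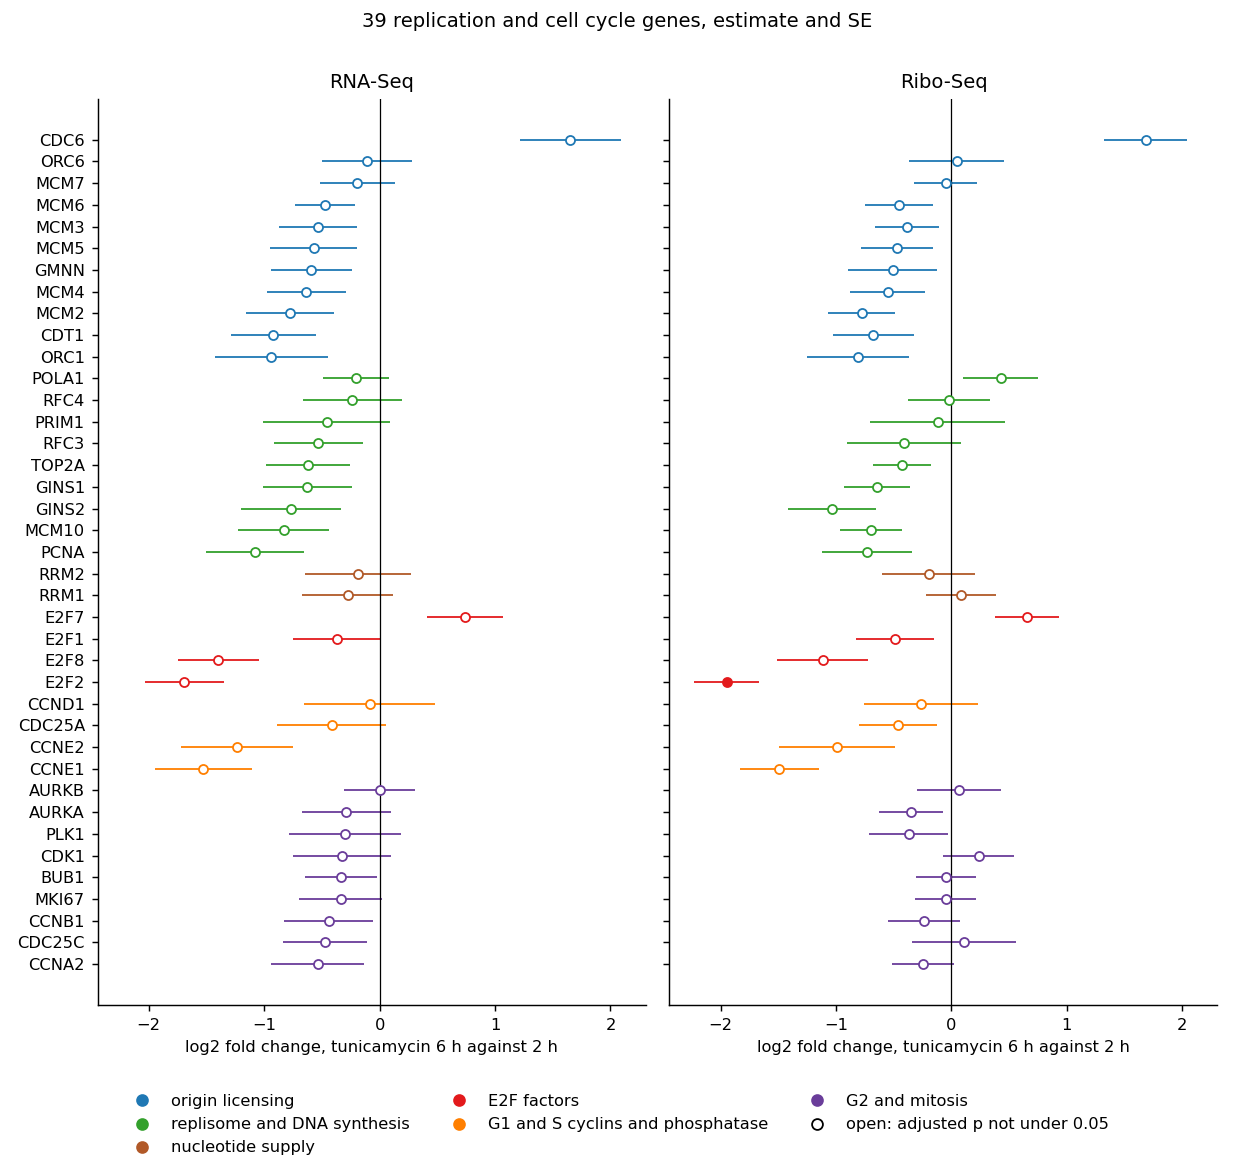
Log2 fold change with SE (horizontal axis) from 2 h to 6 h of tunicamycin for the 39 genes, ordered by role (colours) and by the RNA-Seq value, in RNA-Seq (left) and Ribo-Seq (right); open circles did not reach an adjusted p under 0.05. CDC6 at 1.65 and 1.68 is the highest in each panel, E2F2 at -1.69 and -1.95 the lowest, and most mitotic genes lie near 0, above all in Ribo-Seq.

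Genes of G2 and mitosis lay closer to 0 than those of licensing and replication, most of all in footprints. In RNA-Seq 8 of 9 were negative with a median of -0.33, from CCNA2 (cyclin A2) at -0.54 to AURKB at 0.001. In Ribo-Seq 6 of 9 were negative with a median of -0.05, from the kinase PLK1 at -0.37 to CDK1 at 0.24. The proliferation marker MKI67 stood at -0.34 in RNA-Seq and -0.05 in Ribo-Seq. The G1 and S group of cyclins and CDC25A, the phosphatase that activates CDK2, was negative for 4 of 4 genes in both assays, with medians of -0.83 and -0.73. The difference between role groups was not tested. Across the 39 genes the RNA-Seq and Ribo-Seq differences ran together, with Pearson's r of 0.937 (Spearman's rho 0.883), and 0.908 without CDC6. The points of each assay share the same libraries and the genes are not independent replicates.

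At 2 h of tunicamycin the fitted differences from untreated cells were mostly positive, but within replicate numbers this held only for replicate 1 in both assays. By edgeR 38 of 39 members were positive in RNA-Seq (median 0.61, all genes -0.17) and 38 of 39 in Ribo-Seq (median 0.40, all genes -0.02). None was called in RNA-Seq, where 0.00973% of all genes were, with 5 members at an unadjusted p under 0.05 (8.06% of all genes). None was called in Ribo-Seq, where 0% of all genes were, with 2 at an unadjusted p under 0.05 (3.19% of all genes). DESeq2 also called 0 members in both assays, against 0.165% of all genes in RNA-Seq and 0.0155% in Ribo-Seq. Groups did not overlap for 10 higher members in RNA-Seq, against 3.44% of all genes (5.88% lower), and for 5 higher members in Ribo-Seq, against 2.58% (3.76% lower). CDC25C, the phosphatase that activates CDK1 in mitosis, was among the smallest p in RNA-Seq: 9.29, 12.9 and 8.94 CPM untreated, then 25.7, 16.9 and 13.8 CPM at 2 h, a difference of 0.86 ± 0.364 (edgeR adjusted p = 0.548).

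Within replicate number 1, all 39 genes were higher at 2 h than untreated in both assays, with medians of 1.83 in RNA-Seq and 1.24 in Ribo-Seq. Within replicate 2 the count was 13 higher and 26 lower in RNA-Seq (median -0.06), and 23 higher and 16 lower in Ribo-Seq (median 0.02). Within replicate 3 it was 31 higher and 8 lower in RNA-Seq (median 0.16), and 18 higher and 21 lower in Ribo-Seq (median -0.02). Medians within replicates 2 and 3 thus lay between -0.06 and 0.16, far below those of replicate 1. With these replicates only, E2F7 rose and CCND1 fell at 2 h in RNA-Seq (4.4% of all genes called), and 0 members were called in Ribo-Seq (0% of all genes).

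**Figure D3:**
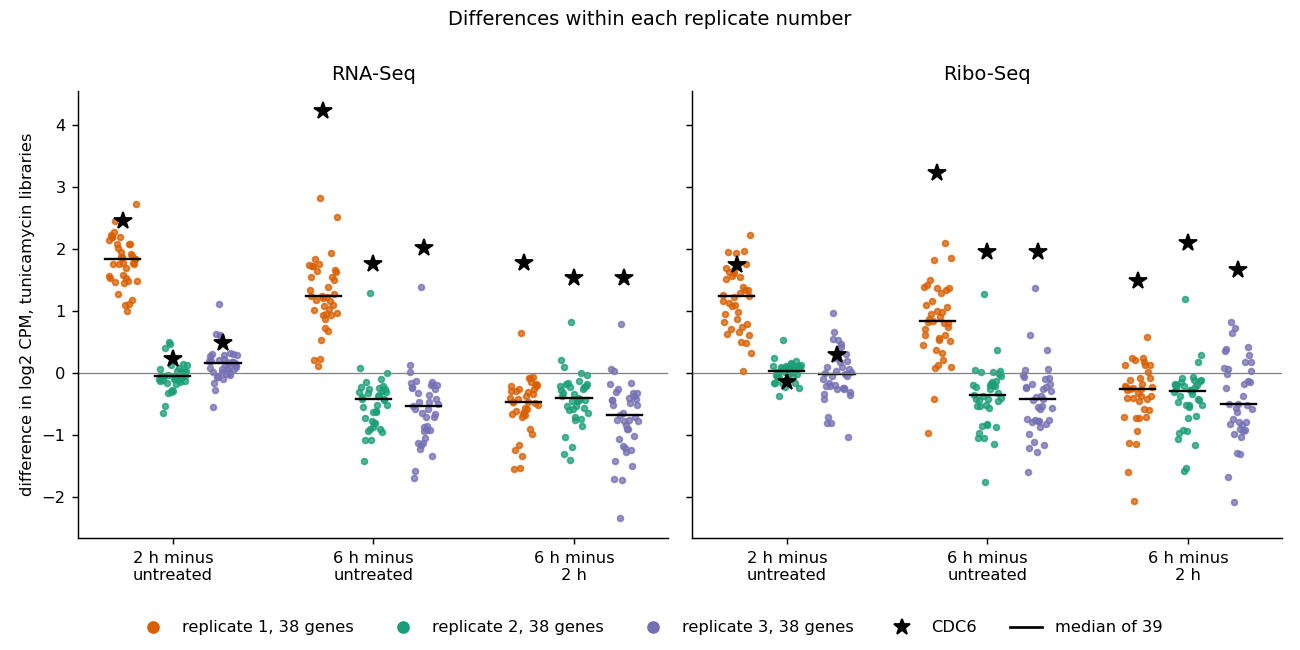
Difference in log2 CPM (vertical axis) between tunicamycin times within each replicate number for 38 genes (points, coloured by replicate) and CDC6 (star), in RNA-Seq (left) and Ribo-Seq (right); lines are medians of 39. Replicate 1 is shifted upward in both comparisons with untreated cells (medians 1.83 and 1.24 in RNA-Seq), while the 6 h minus 2 h medians are negative in every replicate.

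The comparison of 6 h with untreated cells split by replicate in the same way. In edgeR 2 members, CDC6 and E2F7, rose and 0 fell in RNA-Seq, where 1.5% of all genes were called (1.23% higher, 0.275% lower), and in Ribo-Seq, where 0.84% were (0.67% higher, 0.17% lower). The medians were near 0: 0.05 in RNA-Seq with 20 positive and 19 negative, and -0.03 in Ribo-Seq with 17 positive and 22 negative. The RNA-Seq median turned to -0.21 when libraries were scaled by size alone, which moved the median of all genes from -0.27 to -0.58. In Ribo-Seq the groups did not overlap for CDC6 and E2F7, which were higher (9.54% of all genes), and for E2F2 and CCNE1, which were lower (11.1%). Within replicate 1, 39 of 39 genes were higher at 6 h than untreated in RNA-Seq and 37 of 39 in Ribo-Seq. Within replicate 2, 36 of 39 were lower in RNA-Seq and 32 in Ribo-Seq, and within replicate 3, 35 and 33 were lower.

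With replicates 2 and 3 only, 19 members fell and 2 rose from untreated to 6 h in RNA-Seq, where 19.4% of all genes were called and 8.82% were called lower. The 19 included 8 licensing genes, 6 replisome genes, E2F8 and 4 of 4 genes of the G1 and S group, and 0 of 9 mitotic genes. With the block and without RNA-Seq untreated replicate 1, 4 of 9 mitotic genes fell, where 11.8% of all genes were called lower. From 2 h to 6 h in RNA-Seq, 3 of 9 mitotic genes fell with replicates 2 and 3 alone, against 12.5% of all genes called lower. With the block and without RNA-Seq untreated replicate 1, 8 of 9 fell, against 17.1% of all genes. With the block over all replicates, 0 of 9 were called lower. In Ribo-Seq the fit of replicates 2 and 3 called CDC6 and E2F7 higher and 0 members lower (2.47% of all genes called). The 6 h minus 2 h differences within replicate numbers subtract no untreated library. They were negative for 37, 34 and 35 of 39 genes in replicates 1, 2 and 3 of RNA-Seq, and for 29, 35 and 26 in Ribo-Seq. The calls of 6 h against 2 h did depend on the untreated libraries, which share in the fitted spread. With the block in RNA-Seq, 2.73% of all genes were called, and 33.1% without RNA-Seq untreated replicate 1.

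CDC6 moved away from the rest of the set in every replicate. The set, CDC6 included, was chosen with earlier results of these data known, so its rank is a description. It had the highest difference of the 39 genes in each of 3 replicates and both assays, for 6 h against 2 h (1.77, 1.53 and 1.53 in RNA-Seq, 1.48, 2.09 and 1.66 in Ribo-Seq) and for 6 h against untreated (4.22, 1.75 and 2.01, and 3.23, 1.95 and 1.95). The log2 CPM of CDC6 minus the median of the other 38 genes was -0.22, -0.30 and -0.26 in untreated RNA-Seq libraries and 0.25, -0.07 and 0.01 at 2 h. At 6 h of tunicamycin this gap was 2.40, 1.76 and 2.09. Only its change between libraries is read, since CPM are not corrected for gene length. The 3 untreated gaps agreed within an SD of 0.0414 although the level of CDC6 itself in untreated replicate 1 was far below the others, so CDC6 and the rest of the set were low together in that library. In Ribo-Seq the gap was -0.54, -0.77 and -0.82 untreated, -0.12, -1.02 and -0.33 at 2 h, and 1.75, 1.31 and 1.27 at 6 h.

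Translational efficiency, the difference in footprints beyond the difference in RNA, showed no called member. For CDC6 it was -0.19 ± 0.539 (log2) from untreated to 2 h, -0.17 ± 0.538 from untreated to 6 h and 0.02 ± 0.537 from 2 h to 6 h in edgeR's joint fit (adjusted p of 0.9999 or above). The medians over the 39 genes were -0.11, -0.01 and 0.11. By edgeR 0 of 39 members and 0% of 18500 genes were called in each of the 3 comparisons, with 740, 706 and 430 genes (4%, 3.82% and 2.32%) at an unadjusted p under 0.05. By DESeq2 0 members were called as well, against 0.0216%, 0.027% and 0.0432% of all genes. With the replicate block and without the RNA-Seq library of untreated replicate 1, while its Ribo-Seq library stayed in, all 39 members had a positive efficiency difference at 6 h against untreated, with a median of 0.51 (all genes -0.01). With replicates 2 and 3 alone in both assays the median was 0.10 and 14 of 39 were negative. No member was called in either fit.

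The promoters of the members were compared with those of all genes in RefSeq's table for GRCh38.p14, which holds 300 bases per promoter (250 before the start and 50 from it on). Of the 39 genes 33 were matched, with 43 promoters among 35116. An E2F word (TTTCCCGC, TTTCGCGC, TTTGCCGC or TTTGGCGC, either strand) was found in 17 of 43, or 39.5%, against 3.31% of all promoters. CCAAT on either strand was in 79.1% against 34.6%, and the CHR words TTTGAA and TTCGAA in 23.3% against 16.4%. The CRE word TGACGTCA, bound by factors of the CREB and ATF family, was in 6.98% (3 of 43) against 1.85%. Other elements tied to the stress response were nearer to the general share: the XBP1 word TGACGTG in 2.33% against 1.97%, the C/EBP-ATF element TGATGNAA in 4.65% against 3.62%, and the longer ER stress element in 0% against 0.0769%. These are matches of letters and not measured binding sites. The 16 members with an E2F word had a median of -0.53 in RNA-Seq and -0.48 in Ribo-Seq from 2 h to 6 h, and the 17 without had -0.34 and -0.12. For CCAAT the order was the other way: -0.42 and -0.23 in the 27 members with it, -0.85 and -0.73 in those without. CHR words ran like CCAAT (-0.34 and -0.05 in 8 members, -0.53 and -0.41 without). The CRE word ran like E2F (-0.54 and -0.41 in 3 members, -0.43 and -0.30 without). None of these splits was tested.

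Promoters are shown for the 3 genes that passed a test, 150 bases before the start and 20 from it on, 5′ to 3′ on the strand of the gene, with E2F words and CCAAT (or its reverse complement ATTGG) in capitals. They lie at chr17:40287729-40287898 (plus strand) for CDC6, chr12:77065550-77065719 (minus strand) for E2F7 and chr1:23531214-23531383 (minus strand) for E2F2.
CDC6: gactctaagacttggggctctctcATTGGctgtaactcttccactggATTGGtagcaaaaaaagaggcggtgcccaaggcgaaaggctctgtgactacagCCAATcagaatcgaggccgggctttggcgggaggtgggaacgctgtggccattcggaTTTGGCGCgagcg
E2F7: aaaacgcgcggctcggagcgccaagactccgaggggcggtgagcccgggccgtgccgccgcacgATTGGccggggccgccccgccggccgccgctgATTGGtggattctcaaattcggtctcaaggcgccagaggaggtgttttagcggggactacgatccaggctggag
E2F2: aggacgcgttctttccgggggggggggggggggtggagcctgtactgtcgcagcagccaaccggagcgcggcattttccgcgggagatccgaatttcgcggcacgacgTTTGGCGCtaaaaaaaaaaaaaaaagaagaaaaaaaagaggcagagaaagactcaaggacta
CDC6 holds an E2F word just past its start and 3 CCAAT matches. E2F7, which rose with it, holds 4 CCAAT matches in its 300 bases and no E2F word, and E2F2, which fell, holds an E2F word and no CCAAT match.

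Thapsigargin, with 1 library per time and assay, gave values with no replicate check, described here by a limit of 2-fold in the log2 ratio of CPM. The RNA-Seq libraries carry the replicate number 1, and on the second principal component (21.3% of the variance) they lay at 76.1 and 116, near tunicamycin replicate 1 (61.1 and 91.0) and apart from replicates 2 and 3 of all groups (-80.1 to -33.3). CDC6 RNA was at 175 CPM at 2 h and 722 CPM at 6 h, and CDC6 footprints at 80.6 and 383 CPM. The 6 h to 2 h ratio of CDC6 was 2.05 (log2) in RNA-Seq and 2.24 in Ribo-Seq, the highest of the 39 genes in both. Its gap to the median of the other members went from 0.66 to 3.16 in RNA-Seq and from -0.22 to 2.67 in Ribo-Seq.

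From 2 h to 6 h of thapsigargin, 34 of 39 members had a negative log2 ratio in RNA-Seq (median -0.37) and 32 in Ribo-Seq (median -0.56). In RNA-Seq 1 member was at least 2-fold higher and 6 at least 2-fold lower, against 6.93% and 7.85% of all genes. In Ribo-Seq 1 was higher and 7 were lower, against 12% and 15.7% of all genes. The lowest were MKI67 in RNA-Seq (-1.60) and TOP2A, the topoisomerase of mitotic chromosomes, in Ribo-Seq (-1.94).

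The thapsigargin libraries and the tunicamycin groups differed in which genes were lowest. Agent and library cannot be told apart here, and in RNA-Seq the thapsigargin libraries carry replicate number 1. In RNA-Seq the 9 mitotic genes had a median of -0.82 under thapsigargin, lower than the licensing group at -0.30, and in Ribo-Seq -0.98 against -0.14. Under tunicamycin the order was the other way, as given above. E2F2 footprints were at 51.2 CPM at 2 h and 34.5 CPM at 6 h of thapsigargin, a ratio of -0.56 against -1.91 for the tunicamycin means on the same scale. E2F7 was at 252 and 291 CPM in RNA-Seq at 2 h and 6 h of thapsigargin, above every tunicamycin library at both times. The thapsigargin and tunicamycin ratios of 6 h to 2 h share no library. They had the same sign for 35 of 39 genes in RNA-Seq and 32 in Ribo-Seq, with Pearson's r of 0.591 and 0.448, and 0.315 and 0.142 without CDC6. With 1 library per thapsigargin group no difference between the agents could be tested.

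**Figure D4:**
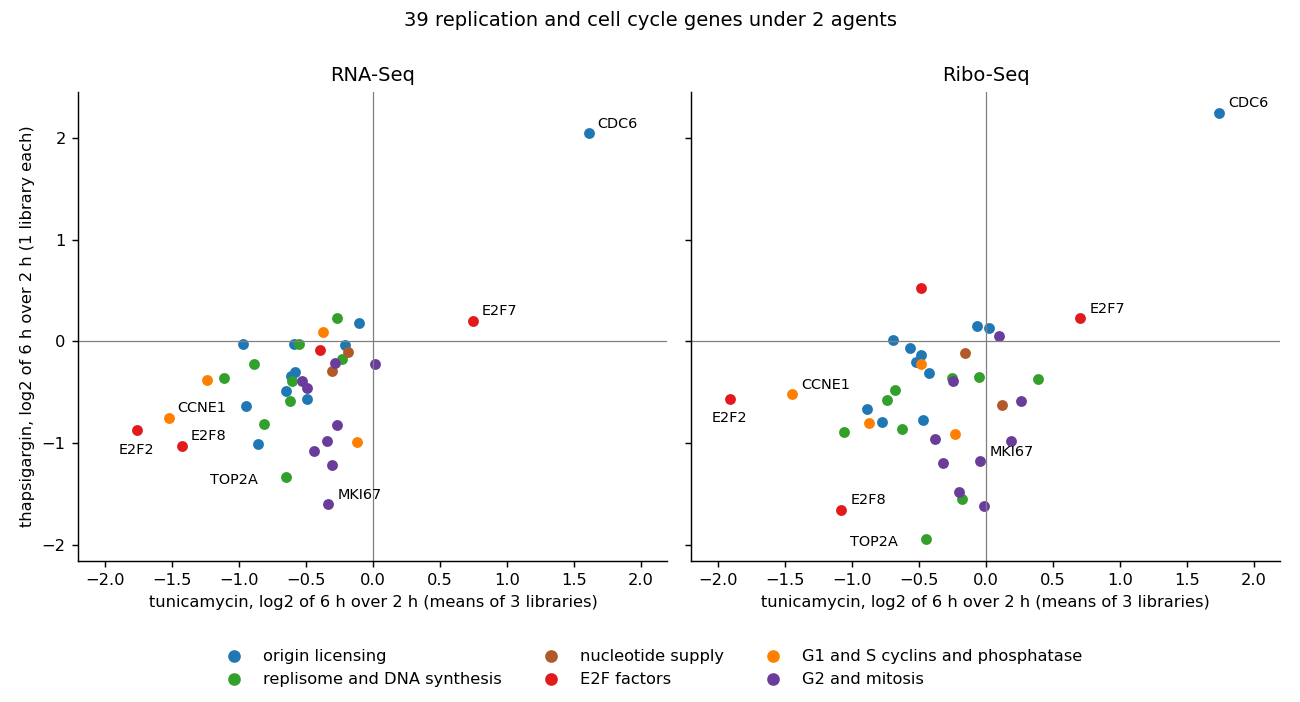
Log2 ratio of 6 h over 2 h under thapsigargin (vertical axis, 1 library per time) against tunicamycin (horizontal axis, means of 3 libraries) for the 39 genes, coloured by role, in RNA-Seq (left) and Ribo-Seq (right). CDC6 is the farthest to the upper right, at 2.05 and 2.24 under thapsigargin, and mitotic genes such as MKI67 sit low on the vertical axis but near 0 on the horizontal one.

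Against untreated cells, 14 members were at least 2-fold higher and 0 lower after 2 h of thapsigargin in RNA-Seq, where 7.54% of all genes were higher and 23.6% lower, and 5 and 0 in Ribo-Seq (9.27% higher and 15.5% lower). After 6 h the counts were 7 higher and 2 lower in RNA-Seq (10.5% and 25.9% of all genes) and 2 higher and 3 lower in Ribo-Seq (13.2% and 22.9%). CDC6 stood at 3.68 and 3.12 and E2F7 at 2.49 and 1.95 in these 6 h ratios. The untreated mean includes replicate 1, and these ratios share the untreated libraries with the tunicamycin comparisons.

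Other genes of the pathway had mostly negative values too. Of 42 other replication genes, 38 were negative from 2 h to 6 h of tunicamycin in RNA-Seq (median -0.32) and 36 in Ribo-Seq (median -0.28), and 0 were called in any tunicamycin comparison by edgeR over all libraries. Of 44 other cell cycle genes, 34 were negative in RNA-Seq (median -0.23), and of the 43 tested in Ribo-Seq 29 were (median -0.10), again with 0 called. With the replicate block and without RNA-Seq untreated replicate 1, 31 other replication genes fell and 3 rose from 2 h to 6 h in RNA-Seq, and 23 other cell cycle genes fell and 5 rose, where 17.1% of all genes were called lower. Replicates 2 and 3 alone gave 21 lower and 2 higher, and 13 lower and 4 higher, against 12.5% of all genes called lower. In Ribo-Seq these fits, the first without Ribo-Seq untreated replicate 1, called 4.41% and 1.6% of all genes lower. They called 4 and 2 other replication genes and 4 and 1 other cell cycle genes lower. SKP2, which targets the CDK inhibitor p27 for degradation, was the lowest of the latter in Ribo-Seq (-1.35 at 6 h against 2 h). With replicates 2 and 3 only it fell in both assays (-1.10 in RNA-Seq, edgeR adjusted p = 0.000291, and -1.61 in Ribo-Seq, adjusted p = 0.0307). Among 11 CDK inhibitors and growth arrest genes, of which 10 were tested in RNA-Seq and 9 in Ribo-Seq, BTG1 alone was called by edgeR over all libraries. With the replicate block, 3 of these genes were called higher from untreated to 6 h in RNA-Seq, against 2.61% of all genes called higher.

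BTG1, an antiproliferative regulator of mRNA decay, had RNA at 63.5, 68.3 and 75.3 CPM untreated, 64.7, 79.1 and 93.7 CPM at 2 h and 229, 208 and 253 CPM at 6 h of tunicamycin. The 6 h libraries stood clear of the untreated and 2 h libraries, and replicate 1 did not stand apart. From 2 h to 6 h BTG1 rose by 1.54 ± 0.219 (log2) in RNA-Seq (edgeR adjusted p = 0.0132) and by 1.61 ± 0.309 in Ribo-Seq (adjusted p = 0.0335), and it rose against untreated cells in both assays as well (1.74, adjusted p = 0.00408, and 1.52, adjusted p = 0.0413).

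The chromosomal neighbours of CDC6 were split in direction. MSL1, CASC3, RAPGEFL1, WIPF2 and RARA lie on either side of it on chromosome 17, and their median from 2 h to 6 h of tunicamycin was -0.50 in RNA-Seq and -0.08 in Ribo-Seq, with 0 of 5 called in either direction by edgeR over all libraries. With the replicate block and without RNA-Seq untreated replicate 1, WIPF2 and CASC3 rose by small amounts in RNA-Seq (0.22, edgeR adjusted p = 0.0484, and 0.25, adjusted p = 0.0227), and MSL1, RAPGEFL1 and RARA fell. In that fit 15.9% of all genes were called higher and 17.1% lower. The block alone called RARA lower (-1.23, edgeR adjusted p = 0.0166), against 1.05% of all genes called lower. Replicates 2 and 3 alone called MSL1, RAPGEFL1 and RARA lower and 0 higher, against 12.5% of all genes called lower. RARA, the retinoic acid receptor gene just downstream, stood at -1.26 in RNA-Seq (edgeR adjusted p = 0.117) and -1.19 in Ribo-Seq (adjusted p = 0.0794), and with replicates 2 and 3 only it fell in both (-1.37, adjusted p = 0.000529, and -1.44, adjusted p = 0.0207). Whether reads were counted by strand is not given in the sources used here, so reads of overlapping or antisense genes cannot be told apart.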

How the data were processed

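Per the submitters' processing notes, the deposited count files came from a pipeline that names STAR 2.5.4b, HTSeq and DESeq2 with the build GRCh38; the sources used here do not state each tool's role, the annotation or whether strand was used. Each of the 22 files holds raw counts per Ensembl gene, 11 for RNA-Seq and 11 for Ribo-Seq. Groups come from the sample titles, and 57437 of 58278 entries have a symbol.

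Genes were filtered with filterByExpr (minimum count 10), scaled by TMM and tested with edgeR 4.0.16 (R 4.3.3), by robust quasi-likelihood fits over all 11 libraries of an assay, with Benjamini-Hochberg adjustment over all genes. A gene is called at an adjusted p under 0.05. Levels are TMM-scaled CPM, log2 CPM used a prior count of 2, and SE is the log2 fold change over the square root of F. Translational efficiency is the interaction of assay and treatment in a fit of all 22 libraries. Library totals of 101 to 167 M in RNA-Seq and 4.39 to 29.2 M in Ribo-Seq set the precision, and members at 30 counts are the least exact.

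Same-numbered libraries deviated together: correlations of their deviations from the group means were 0.0757 to 0.676 in RNA-Seq and 0.122 to 0.407 in Ribo-Seq, over 0.1 for every pair in 5 of 6 pairs of groups (not for untreated and 2 h in RNA-Seq). Differently numbered libraries gave -0.516 to 0.324 in RNA-Seq and -0.286 to 0.0764 in Ribo-Seq. The highest of these, 0.317 and 0.324, were between replicates 2 and 3 at 2 h and 6 h of tunicamycin in RNA-Seq. The replicate numbers come from the titles, which name no shared culture or day. Alternatives were library size scaling, DESeq2 1.42.0, other filters, only the groups compared, the replicate block (without the unnumbered thapsigargin Ribo-Seq libraries), fits without untreated replicate 1, replicates 2 and 3 only, and leaving out each library. The scripts were tested on simulated counts.

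The members and the other gene lists were chosen with earlier results of these data known. Library values are given for CDC6 and, in each tunicamycin comparison, the 3 members with the smallest p and every called member; other lists are named by their called genes. Library values of CCND1 and CDT1, and the gene SKP2, were added after their values were seen.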

Additional observations from a re-analysis of the deposited data

Results flagged for a closer look

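E2F2 footprints differed between the effects of 2 h and 6 h of tunicamycin by a direct test: the log2 change from 2 h to 6 h was -1.95 ± 0.279 (edgeR adjusted p = 0.00724), lower in 3 of 3 replicates (-2.07, -1.58 and -2.08). Against untreated cells E2F2 footprints stood at 1.06 at 2 h and at -0.89 at 6 h, and neither passed the test (with the block and without Ribo-Seq untreated replicate 1, the 6 h value was -1.09, edgeR adjusted p = 0.0236). No group held more than 3 libraries, so single libraries were not tested for standing apart within their group.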

How the results depend on the processing

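Limits first: groups of 3 libraries with a wide spread (biological coefficient of variation 0.506 in RNA-Seq and 0.546 in Ribo-Seq) leave modest differences uncalled, Ribo-Seq depth reached down to 4.39 M counts, and untreated replicate 1 moves with every comparison against untreated cells. The sign of CDC6 in RNA-Seq and Ribo-Seq held in every setting run.

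Members called from 2 h to 6 h in RNA-Seq were 0 in the reported fit. Library size scaling, no filter on low counts, a filter of 10 counts in 3 libraries and a fit of the compared groups alone each gave 1 (E2F2). Over all genes these fits called 225 of 41130, 349 of 54441, 418 of 30168 and 737 of 27678. DESeq2 gave 4 (CDC6, E2F2, E2F8 and CCNE1), against 3.85% of all genes called. For 6 h against untreated in RNA-Seq, the compared groups alone gave 1 (CDC6) in place of 2, against 434 of 28329 genes. In Ribo-Seq, 6 h against untreated gave 1 (CDC6) in place of 2 under library size scaling, against 150 of 19411 genes. For 6 h against 2 h in Ribo-Seq, DESeq2 gave 3 (CDC6, E2F2 and CCNE1) in place of 1, against 2.71% of all genes called. With no filter the count was 2 (CDC6 and E2F2), against 495 of 36925 genes. CDC6 from 2 h to 6 h passed with DESeq2 at 1.64 in RNA-Seq (adjusted p = 0.00675) and 1.70 in Ribo-Seq (adjusted p = 0.000904), and at 1.71 in Ribo-Seq with no filter (edgeR adjusted p = 2.89e-05). The cause was not tested.

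With the replicate number as a block, members called from 2 h to 6 h were 1 in RNA-Seq (E2F2), against 2.73% of all genes called. In Ribo-Seq they were 3 (CDC6 at 1.71, E2F2 and CCNE1), against 2.39% of all genes. The block changed no other count of called members. With the block and without untreated replicate 1 of the same assay, the RNA-Seq counts were 1, 29 and 35. They are for 2 h against untreated, 6 h against untreated and 6 h against 2 h, where 2.54%, 23.9% and 33.1% of all genes were called. In Ribo-Seq the last 2 of these comparisons gave 8 and 12, where 4.08% and 10.1% of all genes were called. CDC6 from 2 h to 6 h was then 1.61 in RNA-Seq (edgeR adjusted p = 1.498e-07) and 1.77 in Ribo-Seq (adjusted p = 0.000205). Replicates 2 and 3 alone gave 2, 21 and 26 called members in RNA-Seq, against 4.4%, 19.4% and 25.1% of all genes. In Ribo-Seq they gave 5 for 6 h against 2 h, against 4.18% of all genes. CDC6 from 2 h to 6 h was at 1.54 in RNA-Seq and 1.90 in Ribo-Seq in these fits. Fewer libraries and fewer genes enter these fits, and 10.1% to 33.1% of all genes were called in the 5 fits with the most member calls. The translational efficiency of CDC6 turned positive with the block and without RNA-Seq untreated replicate 1, its Ribo-Seq library kept (0.28 at 2 h and 0.40 at 6 h against untreated) and with replicates 2 and 3 at 6 h (0.0749), with no call.

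Leaving out each library in turn, members called ranged from 0 to 3 for 6 h against untreated in RNA-Seq, from 0 to 1 in Ribo-Seq, and from 0 to 2 for 6 h against 2 h in Ribo-Seq. Over all genes the calls in these fits ranged from 187 of 41104 to 963 of 31144, from 34 of 19343 to 166 of 18730, and from 30 of 19099 to 162 of 18903. CDC6 ranged from 2.202 to 2.94 for 6 h against untreated in RNA-Seq, from 2.12 to 2.56 in Ribo-Seq, and from 1.41 to 2.16 for 6 h against 2 h in Ribo-Seq, where it was called without tunicamycin 2 h replicate 1 (edgeR adjusted p = 0.0213). Its translational efficiency ranged from -0.67 to 0.0924 at 2 h and from -0.46 to 0.24 at 6 h against untreated, and from -0.27 to 0.50 between 2 h and 6 h, never called.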

Other observations

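Among genes of the pathway outside the 39, the extremes from 2 h to 6 h of tunicamycin, named after their values were seen, were not called in the fit of all libraries. In RNA-Seq, WEE1, the kinase that holds CDK1 inactive, was the lowest of the other cell cycle genes at -1.18 and the cyclin gene CCND2 the highest at 1.05. CHAF1A, which deposits histones behind the fork, was the lowest of the other replication genes at -0.99 and RFC1, the large subunit of the clamp loader, the highest at 0.70. In Ribo-Seq, POLE2, a subunit of the leading strand polymerase, was the lowest of the replication genes at -1.59 and RFC1 again the highest at 0.66. The CDK inhibitor and growth arrest genes had a median of 0.06 in RNA-Seq and -0.03 in Ribo-Seq. Epithelial markers, not part of the labelled cell type, summed to 57.9 to 138 CPM in RNA-Seq and 17.7 to 52.6 CPM in Ribo-Seq, and glial markers to 1090 to 2944 and 1342 to 2681 CPM.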
